A study of Mus musculus with 13 samples.

Results

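The nuclear genes for the subunits of the mitochondrial respiratory chain were followed in mouse adrenal glands before and after loss of Star. They were taken by gene symbol: Nduf genes of the a, b, c, s and v series for complex I, Sdha to Sdhd for complex II, Uqcr genes for complex III, Cox4 to Cox8 genes for complex IV, and Atp5 genes for complex V. Assembly factors with Ndufaf symbols were left out. The rule found 82 genes, of which 81 were among the 14078 genes listed in every group: 37 of complex I, 4 of complex II, 8 of complex III, 15 of the 16 of complex IV, and 17 of complex V. Cox6a2, the heart and muscle form of a complex IV subunit, was listed at 24 h only and could not be tested. The rule works on names, so it also took Cox7a2l, which helps assemble supercomplexes, Ndufa4, now placed with complex IV, and Atp5s and Atp5sl, which despite their names are not structural subunits of the synthase. It left out Cyc1 of complex III and Ndufab1 of complex I, which are read in another list below.

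The respiratory chain passes electrons from NADH and succinate to oxygen. Complexes I, III and IV pump protons out of the mitochondrial matrix as electrons pass, complex II feeds in electrons from succinate without pumping, and complex V lets protons back to make ATP. Most of the subunits are encoded in the nucleus, and several complex IV subunits exist as a widely expressed form and a form found in heart, muscle or brown fat. In cells of the adrenal cortex, mitochondria also hold the first step of steroid synthesis, which depends on the protein made from Star for its cholesterol supply. Brown fat cells, which often lie around the adrenal gland, are rich in mitochondria, and their protein Ucp1 lets protons back without making ATP.

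The libraries were made from adrenal glands of C57BL/6 mice, with a Star knockout brought about by TAM. The group before TAM held 5 libraries, the 24 h group 4 and the 8-week group 4. The sources used here name neither the driver of the deletion nor the animals behind each library, so p-values measure only the spread between these samples. No library from a mouse given TAM without the deletion was analysed here, so effects of time, of TAM and of losing Star cannot be told apart. Star itself was at 3210 to 4240 FPKM before TAM (a read count scaled to transcript length and library total, so a level per length). It was at 487, 626, 17.4 and 208 FPKM in 24 h replicates 1 to 4, and at 85.9 to 202 FPKM at 8 weeks. The cortex markers were also low in 24 h replicate 3 and at 8 weeks, as given below. How much of the fall in Star goes with loss of cortex RNA was not tested. The listed transcripts held 17331673 to 27309429 reads per library.

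The tissue label was checked against marker lists. Cyp11a1, which makes pregnenolone in the cortex, was at 2280 to 4150 FPKM before TAM, and Th, which makes catecholamine precursors in the medulla, at 96.5 to 323 FPKM, so both parts of the gland were present. Markers of other cell types moved between groups too. At 8 weeks 8 of 14 cortex markers were lower than before TAM, and 11 of 11 macrophage markers, 8 of 8 fibroblast markers, 9 of 14 brown fat markers and 4 of 10 fat cell markers were higher. Over all genes 16.4% were lower and 20.5% higher. Of 12 medulla markers 0 were called in either direction, though all 12 had a positive value, with a median log2 fold change of 1.34. In 7 of the 12 the 8-week libraries all lay above those from before TAM, as in 2551 of all 14078 genes. The summed level of the 10 fat cell markers was 228 to 2980 FPKM before TAM, 85.4 to 5750 at 24 h and 9870 to 21600 at 8 weeks. Adipoq, the fat cell hormone, was at 1.65, 75.2, 101, 92.4 and 137 FPKM in replicates 1 to 5 before TAM. Fat cell RNA was thus present in replicates 2 to 5, while replicate 1 held little. Relative to the mean before TAM, the fat cell markers were on average at -3.5 log2 units in replicate 1. They were at 0.28 to 1.28 in replicates 2 to 5. In bulk tissue, more cells of a type and more RNA per cell cannot be told apart. The part of these cell types in the results below was not tested, apart from a fit that holds Ucp1 as a covariate.

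The 24 h replicates 3 and 4 stood apart from the rest of their group in marker genes. The cortex markers of replicate 3 lay on average 5.40 log2 units below the mean before TAM, against a mean of -0.69, -0.07 and -0.76 in the other 24 h libraries. The medulla markers were low in both replicate 3 (-5.48) and replicate 4 (-4.42), against 0.69 and -0.24 in replicates 1 and 2. The red blood cell markers were at -4.89 and -2.75 in replicates 3 and 4, against -0.88 and -0.44. Ucp1 was at 0.116 FPKM in replicate 3. Replicate 3 was the lowest 24 h library for 67 of the 81 subunit genes. For both comparisons with the 24 h group, the calls and the median over the 81 genes are given also without replicate 3 and without replicate 4.

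At 8 weeks, subunit genes of all the complexes were higher than before. Of the 81 genes tested, 54 rose and none fell (edgeR quasi-likelihood test, adjusted p under 0.05), 0 being lower also at an unadjusted p under 0.05. Over all 14078 genes, 20.5% were called higher and 16.4% lower. The median log2 fold change of the subunit genes was 0.77, against 0.03 over all genes, and 79 of 81 had a positive value. In 26 of the 81 genes every 8-week library lay above every library from before TAM in FPKM, as in 2551 of all 14078 genes. FPKM carries no TMM scaling factor, unlike the fold changes. That factor was 0.9576, 0.978, 0.9 and 0.9591 for 8-week replicates 1 to 4, all below the 0.989 to 1.061 before TAM. Overlap in FPKM can thus differ from overlap on the scale of the fold changes. The count of genes called higher was 58 without 8-week replicate 3, 64 without 24 h replicate 3, and between 41 and 64 over all 13 ways of leaving out a single library. Without 24 h replicate 3 the shares over all genes grew too, to 24.3% higher and 23.4% lower.

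**Figure D1:**
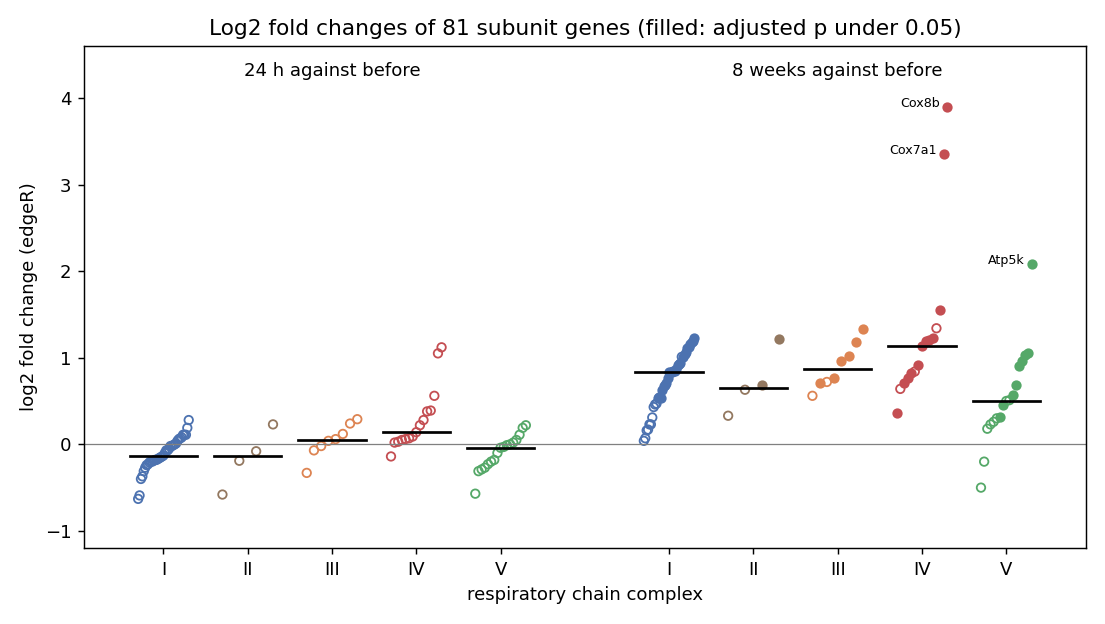
Log2 fold change of the 81 subunit genes by complex (vertical axis), at 24 h and at 8 weeks against before TAM; each point is a gene, filled where the adjusted p was under 0.05, and bars mark medians. At 8 weeks the medians lie between 0.50 for complex V and 1.13 for complex IV, with Cox8b, Cox7a1 and Atp5k far above, and at 24 h no point is filled.

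The complexes differed in their counts and medians, without a test of the difference between them. At 8 weeks 25 of 37 complex I genes were higher than before TAM (median log2 fold change 0.84), 2 of 4 of complex II (0.66), 6 of 8 of complex III (0.87), 12 of 15 of complex IV (1.13) and 9 of 17 of complex V (0.50). The 8-week libraries lay above all those from before TAM, without overlap, for 11 genes of complex I, 1 of complex II, 2 of complex III, 10 of complex IV and 2 of complex V. Over all genes, 20.5% were called higher, and 2551 of 14078 lay above without overlap. Before TAM the median level per length was 86.9 FPKM in complex I, 130 in complex II, 146 in complex III, 143 in complex IV and 188 in complex V. At 8 weeks these medians were 136, 208, 228, 293 and 278 FPKM in the same order. Atp5b, the catalytic beta subunit of the synthase, had the highest level before TAM, at 677 ± 95.8 FPKM (SD, n = 5), and Cox6b2, the testis form of a complex IV subunit, the lowest, at 1.83 ± 1.34.

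**Figure D2:**
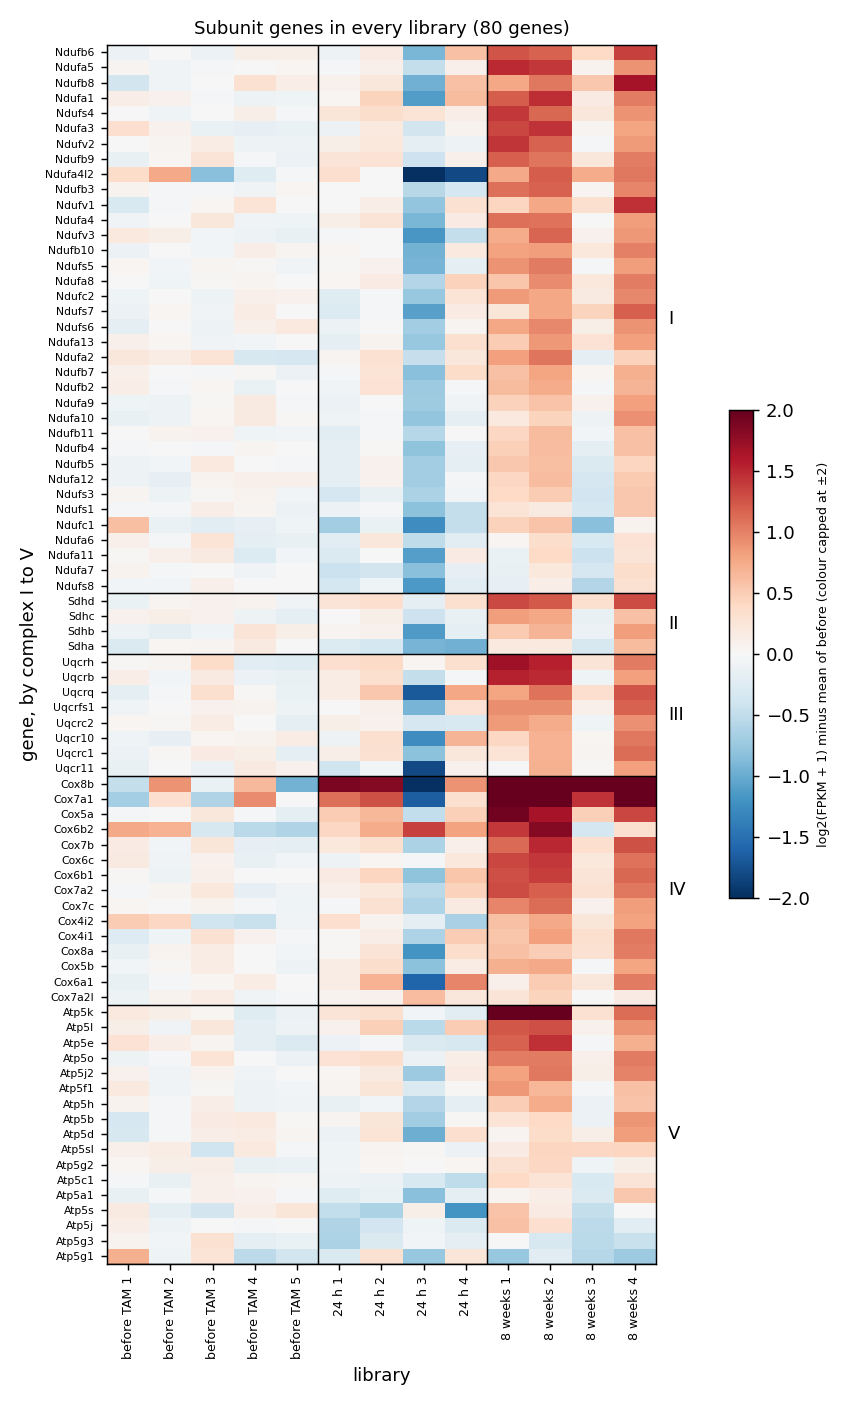
Level of each of 80 subunit genes (rows, ordered by complex) in each of the 13 libraries (columns), as log2(FPKM + 1) minus the gene's mean before TAM, with the colour scale capped at 2 log2 units either way. The columns of 8-week replicates 1, 2 and 4 are high in most rows, 8-week replicate 3 less so, and 24 h replicate 3 is lower than the rest of its group in most rows.

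Complex I takes electrons from NADH. Its call with the lowest p was Ndufs4, an accessory subunit whose loss causes Leigh syndrome, on chr13:114287795-114388094 (mm10, minus strand). Ndufs4 was at 34.5, 32.6, 35.1, 38.1 and 34.2 FPKM in the 5 libraries before TAM, at 41.2, 44.6, 42.5 and 38.4 at 24 h, and at 94.1, 78.2, 41.0 and 65.9 at 8 weeks. The 8-week libraries were all above those from before TAM, with replicate 3 the lowest of them. Its log2 fold change at 8 weeks was 1.12 (SE 0.16, adjusted p = 0.00023). It was also the only subunit gene whose 24 h libraries all lay above those from before, although that rise of 0.28 did not pass (adjusted p = 0.27).

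The other leading complex I genes encode accessory subunits. Ndufa5 rose from 66.9 ± 2.15 (SD, n = 5) to 141 ± 54.5 FPKM (n = 4), a log2 fold change of 1.19 (SE 0.22, edgeR adjusted p = 0.0014), and its 8-week libraries ran from 70.5 to 189 FPKM, above a highest value of 69.3 before TAM. Ndufb3 rose by 1.01 (SE 0.18, adjusted p = 0.0011), from 81.1 ± 3.22 to 151 ± 45.7 FPKM. Ndufb9 rose by 1.04 (SE 0.19, adjusted p = 0.0014), from 142 ± 16.6 to 268 ± 70.3 FPKM. For Ndufb3 and Ndufb9, 8-week replicate 3 lay within the range from before TAM on the FPKM scale, at 84.2 and 165 FPKM.

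The core of complex I, which holds the flavin and the iron-sulfur clusters, was split. Of its nuclear-encoded subunits, Ndufv1 (log2 fold change 0.94, adjusted p = 0.014), Ndufv2 (1.07, adjusted p = 0.0018) and Ndufs7 (0.84, adjusted p = 0.018) rose at 8 weeks. Others did not pass: Ndufs1 was at 0.31 (adjusted p = 0.22), Ndufs3 at 0.43 (adjusted p = 0.071) and Ndufs8 at 0.07 (adjusted p = 0.81). These core genes were singled out after their values were seen.

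Complex II oxidises succinate in the citric acid cycle and has only nuclear-encoded subunits. Its membrane anchors rose and its catalytic part did not pass the test. Sdhd, an anchor, was at 80.1, 90.6, 93.0, 91.5 and 82.8 FPKM before TAM, at 105, 111, 76.0 and 110 at 24 h, and at 221, 206, 110 and 217 at 8 weeks. Every 8-week library was above every library from before TAM, with replicate 3 set apart below the others. The log2 fold change was 1.22 (SE 0.19, edgeR adjusted p = 0.00031). Sdhc, the other anchor, rose by 0.68 (SE 0.17, adjusted p = 0.0087), from 101 ± 9.41 to 149 ± 40.8 FPKM. Sdha, the flavoprotein, was at 0.33 (SE 0.21, adjusted p = 0.23), and Sdhb, the iron-sulfur protein, at 0.63 (SE 0.24, adjusted p = 0.058). The call for Sdhb depended on the libraries in the fit, since it passed without 24 h replicate 3 (0.60, adjusted p = 0.0062) and without 8-week replicate 3 (0.76, adjusted p = 0.035).

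The 250 bases upstream of the start site of Sdhd, chr9:50603850-50604099 on the minus strand of GRCm38.p6 (RefSeq), are shown because Sdhd had the largest fold of complex II and its window holds matches to 2 of the 5 motifs searched on both strands. These were GCGCANGCG for NRF1 and CCGGAAG for ETS factors, which serve many respiratory genes, with AAGATGGCG for YY1, TCAAGGTCA for estrogen-related receptors and GGGCGG for SP1. Here and below capitals mark a match to a motif or to its reverse complement.
Sdhd: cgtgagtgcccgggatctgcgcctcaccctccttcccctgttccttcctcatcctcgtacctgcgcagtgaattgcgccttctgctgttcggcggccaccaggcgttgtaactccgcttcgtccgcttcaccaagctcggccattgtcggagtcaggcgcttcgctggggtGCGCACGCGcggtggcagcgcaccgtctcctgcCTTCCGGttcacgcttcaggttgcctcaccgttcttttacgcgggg
The capitals here mark 1 match for NRF1 and, further 3′, 1 reverse match for ETS. A match is a description of letters and not a measured binding site.

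Complex III moves electrons from ubiquinol to cytochrome c. Uqcrh, its hinge protein, had the lowest p and rose from 217 ± 38.2 (SD, n = 5) to 505 ± 197 FPKM (n = 4), a log2 fold change of 1.33 (SE 0.23, edgeR adjusted p = 0.00085). Its 8-week libraries were at 693, 629, 256 and 441 FPKM. On that scale replicate 3 lay inside the range from before TAM, which reached 276. Uqcrb, which binds ubiquinone, rose by 1.18 (SE 0.27, adjusted p = 0.0042). The core protein Uqcrc2 rose by 0.77 (SE 0.18, adjusted p = 0.0057), and Uqcrfs1, the Rieske iron-sulfur protein, by 0.96 (SE 0.24, adjusted p = 0.0082). Of the rest, Uqcrc1 (0.71, adjusted p = 0.040) and Uqcrq (1.02, adjusted p = 0.049) passed, while Uqcr10 (0.72, adjusted p = 0.092) and Uqcr11 (0.56, adjusted p = 0.19) did not.

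Complex IV hands electrons to oxygen, and it held the 2 largest fold changes of all subunit genes. Both belong to forms that mark heart, skeletal muscle and brown fat. Cox8b, on chr7:140898942-140900446 (minus strand), was at 15.9, 42.8, 20.3, 35.9 and 11.2 FPKM before TAM, at 85.1, 82.3, 0.966 and 42.8 at 24 h, and at 405, 582, 93.3 and 329 at 8 weeks. No 8-week library overlapped any earlier library, and 24 h replicates 1 and 2 were also above all those from before TAM. The log2 fold change at 8 weeks was 3.90 (SE 0.85, edgeR adjusted p = 0.0034), which is 14.9-fold.

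Cox7a1, on chr7:30184171-30186030 (plus strand), behaved likewise. Cox7a1 was at 10.5, 22.3, 11.1, 34.6 and 17.4 FPKM before TAM, at 38.4, 43.5, 4.88 and 22.1 at 24 h, and at 198, 294, 49.1 and 189 at 8 weeks. Again the 8-week libraries were all above the earlier ones, and replicate 3 was the lowest of them. The log2 fold change was 3.35 (SE 0.61, edgeR adjusted p = 0.0011), which is 10.2-fold.

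The widely expressed partners of these genes had smaller fold changes, without a test of the difference. Cox7a2 rose by 1.13 (SE 0.22, edgeR adjusted p = 0.0017), from 88.5, 93.1, 104, 80.0 and 85.4 FPKM to 223, 208, 111 and 187 FPKM. Cox8a was at 236, 276, 290, 262 and 254 FPKM before TAM and at 394, 371, 326 and 538 FPKM at 8 weeks, 0.76 higher on the log2 scale (SE 0.27, adjusted p = 0.044). The 8-week libraries of both genes lay above those from before TAM, but the Cox8a call did not hold when any of 10 of the 13 libraries was left out. These were each of the 5 before TAM, 24 h replicate 1 and each of the 4 at 8 weeks, with adjusted p between 0.055 and 0.13. Cox7a1 made up 17.3 ± 8.27% of the summed FPKM of Cox7a1 and Cox7a2 before TAM (SD, n = 5), 20.1 ± 10.7% at 24 h and 46.6 ± 11.7% at 8 weeks (n = 4). The share at 8 weeks was 47.0, 58.6, 30.6 and 50.3% in replicates 1 to 4. Cox8b made up 8.52 ± 3.99% of Cox8b and Cox8a before TAM, 14.2 ± 10.5% at 24 h and 43.0 ± 16.8% at 8 weeks, where the libraries gave 50.7, 61.1, 22.2 and 37.9%.

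**Figure D3:**
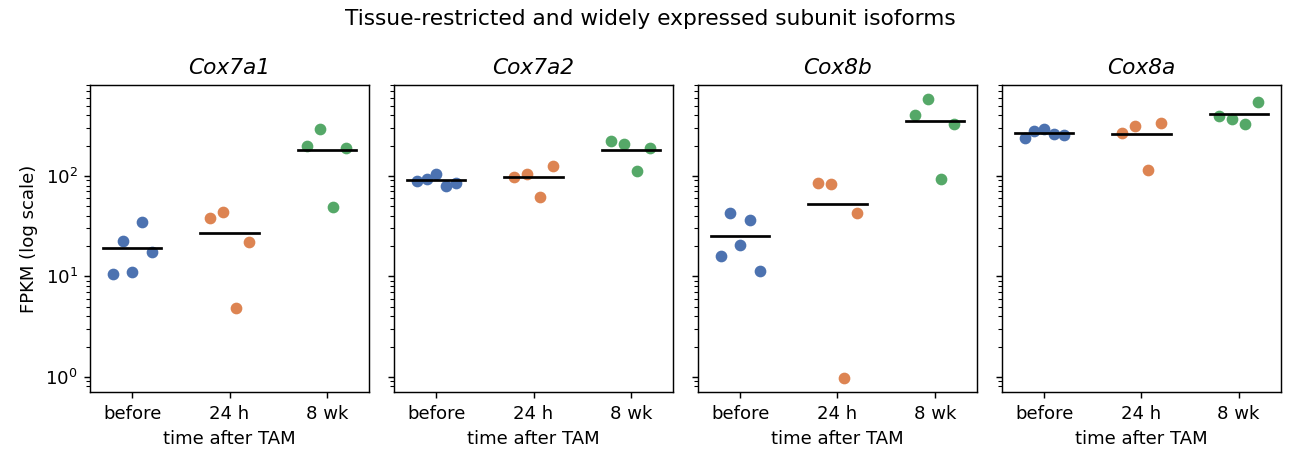
Level in FPKM (log axis) of Cox7a1 and Cox8b, the forms of heart, muscle and brown fat, and of their partners Cox7a2 and Cox8a, in the libraries of the groups (points) with the mean of each group (bars). Cox7a1 and Cox8b move from at most 42.8 FPKM before TAM to between 49.1 and 582 FPKM at 8 weeks, while the partners start at 80.0 FPKM or above.

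The 250 bases upstream of these genes are shown to set the restricted forms beside their partners. They come from RefSeq on GRCm38.p6: chr7:30183921-30184170 (plus strand) for Cox7a1, chr9:79759854-79760103 (minus) for Cox7a2, chr7:140900447-140900696 (minus) for Cox8b and chr19:7217617-7217866 (minus) for Cox8a.
Cox7a1: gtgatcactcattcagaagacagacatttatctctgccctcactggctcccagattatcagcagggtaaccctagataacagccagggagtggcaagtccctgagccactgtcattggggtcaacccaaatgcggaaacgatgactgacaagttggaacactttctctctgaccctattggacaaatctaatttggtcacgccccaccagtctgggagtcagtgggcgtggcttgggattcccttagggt
Cox7a2: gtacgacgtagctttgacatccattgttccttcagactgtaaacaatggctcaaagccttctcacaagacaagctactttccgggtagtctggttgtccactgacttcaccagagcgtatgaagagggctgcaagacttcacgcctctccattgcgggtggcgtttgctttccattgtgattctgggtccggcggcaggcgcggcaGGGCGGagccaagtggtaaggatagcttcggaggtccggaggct
Cox8b: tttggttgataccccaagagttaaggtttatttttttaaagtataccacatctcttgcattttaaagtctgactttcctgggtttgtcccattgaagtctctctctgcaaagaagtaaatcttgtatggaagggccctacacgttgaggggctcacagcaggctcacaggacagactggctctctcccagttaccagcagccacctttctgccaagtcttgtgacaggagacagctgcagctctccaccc
Cox8a: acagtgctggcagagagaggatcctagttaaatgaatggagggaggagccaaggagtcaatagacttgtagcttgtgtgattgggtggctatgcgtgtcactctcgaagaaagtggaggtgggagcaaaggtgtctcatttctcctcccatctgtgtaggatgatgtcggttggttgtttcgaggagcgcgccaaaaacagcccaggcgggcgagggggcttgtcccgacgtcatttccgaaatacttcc
Among these 4 windows, Cox7a2 alone holds a match, 1 for SP1. The bases G and C make up 51.2% of the window of Cox7a1, 54.8% of Cox7a2, 47.2% of Cox8b and 52.8% of Cox8a.

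Other complex IV genes rose to a lesser degree. Cox5a, on the matrix side of the enzyme, was at 104, 108, 126, 106 and 94.2 FPKM before TAM, at 153, 171, 75.5 and 150 at 24 h, and at 412, 339, 150 and 271 at 8 weeks. Its 8-week libraries were all above those from before TAM, and the log2 fold change was 1.55 (SE 0.27, edgeR adjusted p = 0.00086). Cox6c rose by 1.20 (SE 0.19, adjusted p = 0.00037), from 235 ± 21.9 to 498 ± 161 FPKM, and Cox7b by 1.23 (SE 0.23, adjusted p = 0.0013), from 92.7 ± 12.7 to 202 ± 62.0 FPKM. Cox4i1, the common form of the largest nuclear subunit, rose by 0.82 (SE 0.24, adjusted p = 0.016), a call that did not hold without replicate 2 from before TAM (adjusted p = 0.050) or without 8-week replicate 4 (adjusted p = 0.051). Its hypoxia-linked partner Cox4i2 was at most at 5.64 FPKM in any library, with a log2 fold change of 0.84 (adjusted p = 0.075, or 0.045 without replicate 1 from before TAM).

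Other complex IV genes with related forms are given by their values, without a test of the difference between forms. Cox6b1 rose by 1.19 (SE 0.27, edgeR adjusted p = 0.0039), while the testis form Cox6b2 was at 1.83 ± 1.34 FPKM before TAM and 4.35 ± 3.33 at 8 weeks (adjusted p = 0.099, or 0.043 without 8-week replicate 3). Cox6a1 was at 0.64 (SE 0.39, adjusted p = 0.21, or 0.027 without 24 h replicate 3). Cox6a2, on chr7:128205435-128206366, read 11.0, 14.6, 0.566 and 11.8 FPKM at 24 h and was not analysed here in the other groups. Cox7a2l, the supercomplex factor, rose by 0.36 (SE 0.12, adjusted p = 0.034), with adjusted p between 0.05 and 0.11 when replicates 1, 2, 4 or 5 from before TAM or 8-week replicates 1, 2 or 3 were left out. Ndufa4 rose by 0.93 (SE 0.25, adjusted p = 0.012). Ndufa4l2, its hypoxia-linked relative, was at 26.4 ± 11.1 FPKM before TAM and 48.6 ± 8.00 at 8 weeks (log2 fold change 1.01, SE 0.51, adjusted p = 0.14, or 0.049 without 24 h replicate 3).

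Complex V, the ATP synthase, held both the third-largest rise and the 2 negative values. Atp5k, subunit e of the membrane part, on chr5:108433253-108434378 (minus strand), was at 69.2, 66.1, 62.6, 51.0 and 55.8 FPKM before TAM, at 72.3, 76.1, 58.4 and 52.0 at 24 h, and at 430, 320, 75.3 and 133 at 8 weeks. All 8-week libraries were above those from before TAM, yet replicate 3 was close to them, and replicates 1 and 2 were far above replicate 4. The log2 fold change was 2.08 (SE 0.37, edgeR adjusted p = 0.00096), which is 4.22-fold. Its transcript of 292 bases is short, and closely similar copies of short genes can share reads under this counting, so the value carries that uncertainty. Its upstream window, chr5:108434400-108434649 on the minus strand of GRCm38.p6, is shown as that of the third-largest fold, with a stretch in capitals that matches the NRF1 motif on both strands.
Atp5k: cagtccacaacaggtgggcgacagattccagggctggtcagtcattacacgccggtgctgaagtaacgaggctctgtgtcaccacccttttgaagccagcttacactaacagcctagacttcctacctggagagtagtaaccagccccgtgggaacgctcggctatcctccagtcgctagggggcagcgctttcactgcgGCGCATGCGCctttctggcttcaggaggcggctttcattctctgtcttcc
The RefSeq start site lies 21 bases upstream of the start that the deposited tables give for Atp5k.

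The other synthase genes that rose with the lowest p were Atp5o, of the stalk (0.96, SE 0.18, edgeR adjusted p = 0.0013), Atp5e, the small epsilon subunit (1.03, SE 0.22, adjusted p = 0.0029), and Atp5j2, of the membrane part (0.91, SE 0.21, adjusted p = 0.0045). Atp5o rose from 165 ± 19.1 (SD, n = 5) to 296 ± 79.5 FPKM (n = 4). Of the genes of the catalytic F1 part, Atp5e thus passed the test and the others tested did not. Atp5a1 was at 0.26 (adjusted p = 0.34), Atp5b at 0.51 (adjusted p = 0.12), Atp5c1 at 0.30 (adjusted p = 0.11) and Atp5d at 0.50 (adjusted p = 0.15). The F1 genes were grouped after their values were seen. Atp5j, a stalk factor, was at 0.18 (adjusted p = 0.42).

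The 3 genes for subunit c, which forms the rotating ring, gave different values, although each encodes the same mature protein. Atp5g2 rose by 0.32 (SE 0.11, edgeR adjusted p = 0.039), from 211 ± 19.2 to 242 ± 34.8 FPKM. That call did not hold without replicates 1, 2, 4 or 5 from before TAM, 24 h replicate 4, or 8-week replicates 1 or 2 (adjusted p 0.056 to 0.16). Atp5g1 (-0.50, SE 0.29, adjusted p = 0.20) and Atp5g3 (-0.20, SE 0.16, adjusted p = 0.35) were the 2 subunit genes with negative values at 8 weeks. Atp5g1 has 2 listed transcripts that end at the same place and start 63 bases apart, so its sum hides a split that was noticed after the values were seen. NM_001161419, on chr11:96072793-96075631, read 132, 63.2, 99.4, 44.0 and 54.2 FPKM before TAM and 14, 26.0, 29.9 and 21.9 at 8 weeks. NM_007506, on chr11:96072793-96075694, read 44.0, 38.0, 30.4, 30.2 and 28.9 FPKM before TAM and 49.3, 67.1, 42.3 and 42.9 at 8 weeks. In the authors' deposited table the first had a log2 ratio of -1.71 (q = 0.014) and the second 0.55 (q = 0.058). The sources used here do not say how reads were divided between overlapping transcripts.

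At 24 h none of the 81 subunit genes passed in either direction, while 12.6% of all genes were higher and 6.63% lower than before TAM (edgeR, adjusted p under 0.05). At an unadjusted p under 0.05, 1 was higher (Cox7a2l) and 2 were lower (Ndufa7 and Sdha), and DESeq2 called 1 lower, Sdha. The median log2 fold change was -0.02, against 0.03 over all genes. By complex the medians were -0.13 for complex I, -0.14 for II, 0.05 for III, 0.14 for IV and -0.04 for V. Without 24 h replicate 3 the median was 0.16, against 0.01 over all genes, and by complex it was 0.06 for I, 0.06 for II, 0.26 for III, 0.31 for IV and 0.08 for V. Without 24 h replicate 4 it was -0.14, against 0.02 over all genes. The sign of the median at 24 h thus differed with the library left out. Ndufa7, an accessory subunit of complex I, was at 138, 129, 131, 125 and 131 FPKM before TAM and at 97.1, 101, 73.2 and 117 at 24 h, with no overlap (log2 fold change -0.40, adjusted p = 0.11). Sdha was at 180, 228, 230, 250 and 223 FPKM before TAM and at 182, 173, 116 and 113 at 24 h (log2 fold change -0.58, adjusted p = 0.070). Without 24 h replicate 3, Cox8b (1.55, adjusted p = 0.035), Cox6a1 (0.73, adjusted p = 0.026) and Uqcrq (0.58, adjusted p = 0.046) were higher and Atp5s was lower (-0.81, adjusted p = 0.036). In that fit 16.6% of all genes were higher and 11.8% lower. Without 24 h replicate 4, Ndufa7 was lower (-0.54, adjusted p = 0.042), with 10.2% of all genes higher and 5.09% lower.

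The later samples were also set against the 24 h ones. Here 52 of 81 subunit genes were higher at 8 weeks and none was lower (edgeR, also 0 lower at an unadjusted p under 0.05), with 10.2% of all genes higher and 10.6% lower. The median log2 fold change was 0.82, against -0.03 over all genes. It was 0.58 without 24 h replicate 3 and 0.85 without 24 h replicate 4. By complex, 28 of 37 genes of complex I, 4 of 4 of complex II, 4 of 8 of complex III, 8 of 15 of complex IV and 8 of 17 of complex V were higher. In 13 genes the 8-week libraries were all above the 24 h libraries, as in 1397 of all 14078 genes. The count of genes called higher was 8 in a fit of these 2 groups alone (Atp5e, Atp5k, Cox6c, Cox7a1, Cox7b, Ndufa5, Ndufb3 and Ndufv3), where 3.28% of all genes were higher. It was 48 without 24 h replicate 3, 45 without 24 h replicate 4, 34 without 8-week replicate 2 and 33 without 8-week replicate 4.

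Both comparisons at 8 weeks use the same 8-week libraries, so their values are only set side by side. Ndufb3 rose by 1.19 (SE 0.20, edgeR adjusted p = 0.0036) and Ndufv3, a small accessory subunit at the tip of complex I, by 1.19 (SE 0.20, adjusted p = 0.0040). All the complex II genes rose: Sdhd by 0.99 (adjusted p = 0.0078), Sdha by 0.92 (adjusted p = 0.016), Sdhc by 0.76 (adjusted p = 0.016) and Sdhb by 0.82 (adjusted p = 0.041). The Sdhb call was lost in 9 of the 13 fits that left out a library, with adjusted p up to 0.10. Cox6c rose by 1.14 (SE 0.20, adjusted p = 0.0044), Cox7a1 by 2.79 (SE 0.65, adjusted p = 0.013) and Atp5k by 1.97 (SE 0.40, adjusted p = 0.0084). Cox8b was 2.78 higher (SE 0.88, adjusted p = 0.041), a call lost in 10 of the 13 fits that left out a library (adjusted p 0.051 to 0.094).

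Ucp1, the proton leak of brown fat, varied widely between libraries of the same group. It was at 0.149, 60.4, 12.2, 93.5 and 4.03 FPKM before TAM, at 220, 267, 0.116 and 28.0 at 24 h, and at 508, 943, 279 and 1350 at 8 weeks. All 8-week libraries were above all earlier ones. The log2 fold change at 8 weeks was 4.62 (SE 1.58, edgeR adjusted p = 0.036), and the call did not hold without replicates 2, 3 or 5 from before TAM or 8-week replicates 1, 2 or 4 (adjusted p 0.054 to 0.078). At 24 h Ucp1 was at 1.97 (SE 1.44, adjusted p = 0.38).

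The rise of the subunit genes was then set beside Ucp1 in each library, as the mean log2 CPM of the genes relative to their mean before TAM. CPM is a count scaled to the library total after TMM adjustment. Before TAM the mean over all 81 genes, centred on 0 there by definition, ran from -0.08 to 0.09, with Ucp1 at 0.149 to 93.5 FPKM. All 8-week libraries had higher Ucp1, so the libraries from before TAM do not cover that range. At 24 h it was 0.03, 0.21, -0.80 and 0.19 in replicates 1 to 4, and at 8 weeks 0.90, 0.97, 0.32 and 0.94. The 24 h replicates 1 and 2 had Ucp1 below that of 8-week replicate 3, at 220 and 267 against 279 FPKM. On the log2 scale of the means, Ucp1 was at 4.65 and 4.94 against 5.24. The subunit means were 0.03 and 0.21 against 0.32. Among the 8-week libraries, replicate 3 was lowest both in Ucp1 and in 75 of 81 subunit genes. The order of Ucp1 over the 4 libraries (replicate 4, then 2, 1 and 3) was found in 21 of 81 genes, and replicate 4 was the highest library in 32.

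**Figure D4:**
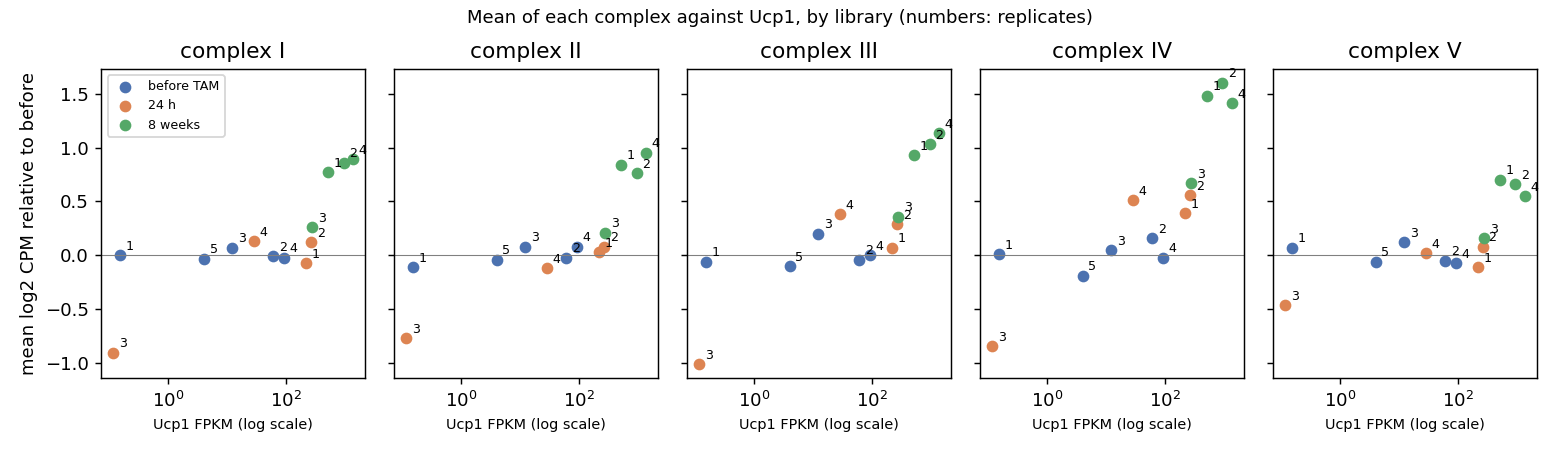
Mean log2 CPM of the genes of each complex relative to the mean before TAM (vertical axis) against Ucp1 in FPKM (log axis) in 13 libraries, marked by group and replicate number. Before TAM the means, centred on 0 by definition, run from -0.19 to 0.20, at Ucp1 below that of every 8-week library. The 24 h replicate 3 is low in both, and the 8-week libraries have the highest Ucp1, with replicates 1, 2 and 4 highest in each mean.

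By complex, the means at 8 weeks were 0.77, 0.86, 0.26 and 0.89 for complex I in replicates 1 to 4. They were 0.84, 0.76, 0.21 and 0.95 for complex II, and 0.93, 1.03, 0.36 and 1.13 for complex III. For complex IV they were 1.48, 1.60, 0.67 and 1.41, the highest in each library. Complex V had 0.70, 0.66, 0.16 and 0.55, the lowest in each. Complex IV was also the highest complex in 24 h replicates 1, 2 and 4, at 0.39, 0.56 and 0.51, and its mean in 24 h replicate 3 was -0.84. No p is given for these means because the genes were chosen with earlier results known.

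The libraries with the highest level differed between genes. Replicate 1 was highest at 8 weeks for 17 genes, replicate 2 for 32 and replicate 4 for 32. Genes highest in replicate 4 had a median transcript length of 851 bases (436 to 2859), and those highest in replicates 1 or 2 of 561 bases (292 to 2661). Whether transcript length bears on this order was not tested.

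With log2 CPM of Ucp1 as a covariate beside group in the edgeR fit, 17 subunit genes were higher at 8 weeks than before TAM, and all 17 were among the 54. That is 21.0% of the 81, close to the 16.6% of all genes called higher in that fit. The median log2 fold change was 0.44 in that fit, against 0.77 without Ucp1 and 0.06 over all genes in the same fit. The 17 were 6 genes of complex I, 1 of complex II, 1 of complex III, 6 of complex IV and 3 of complex V. Cox7a1 was still called at 1.82 (adjusted p = 0.018) and Atp5k at 1.98 (adjusted p = 0.012), while Cox8b was at 1.71 (adjusted p = 0.17). Ndufs4 and Sdhd were among the 17 as well. Ucp1 differs between the groups, so this fit shares the difference out between Ucp1 and time.

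The Pearson correlation of log2(FPKM + 1) over 13 libraries ranked the subunit genes by likeness to Ucp1. The 5 most alike were Cox8b (0.92), Cox7a1 (0.91), Ndufb8 (0.83), Ndufb9 (0.82) and Uqcrc1 (0.81). The libraries fall into 3 groups that themselves differ in Ucp1, so these values serve for ranking only. Ndufb8, a complex I subunit, rose by 1.18 at 8 weeks (SE 0.30, edgeR adjusted p = 0.0075).

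Other mitochondrial gene lists were read beside the subunits at 8 weeks against before TAM, where 20.5% of all genes were higher and 16.4% lower. A list of 15 genes held other electron carriers and enzymes that feed them, Coq genes of coenzyme Q synthesis, Cyc1 and Ndufab1. Of these 15, 9 were higher and 0 lower (edgeR, also 0 at an unadjusted p under 0.05), with a median of 0.69. Etfb, which passes electrons from fatty acid oxidation, rose from 109 ± 16.9 to 321 ± 88.5 FPKM (log2 fold change 1.68, adjusted p = 0.00028), Cycs, cytochrome c, by 1.90 (adjusted p = 0.00095), and Gpd2, of the glycerol phosphate shuttle, by 2.36 (adjusted p = 0.0014). Of 15 genes of fatty acid oxidation 10 were higher and 1 lower (median 1.11), led by Slc25a20, the carnitine carrier, at 1.72 (adjusted p = 0.00014). The gene that fell was Cpt1a, the liver form of the gatekeeper enzyme, at -1.07 (adjusted p = 0.028), while its muscle and brown fat form Cpt1b was at 3.17 (adjusted p = 0.010). Of 13 citric acid cycle genes 9 were higher and 1 lower (median 0.73), with Idh3a at 1.46 (adjusted p = 0.0051) and Suclg2 at -0.86 (adjusted p = 0.00091).

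Genes that help build the respiratory chain were called in both directions, as were genes at large. Over all genes 20.5% were higher and 16.4% lower at 8 weeks, and 12.6% and 6.63% at 24 h. Of 48 assembly factors 7 were higher and 7 lower at 8 weeks, with a median log2 fold change of 0.04, and 0 were higher and 12 lower at 24 h (edgeR, 1 higher at an unadjusted p under 0.05). Coa4 (1.45, adjusted p = 0.0064) rose, and Atpaf1 (-0.88, adjusted p = 0.00028), Cox18 (-0.88, adjusted p = 0.0014) and Cox15 (-0.82, adjusted p = 0.0023) fell. Of 77 mitochondrial ribosomal proteins 7 were higher and 7 lower (median -0.02), and of 19 carriers and import proteins 4 were higher and 2 lower (median -0.24). Of 77 cytosolic ribosomal proteins, which also have short and abundant messenger RNAs, 13 were higher and 0 lower (1 lower at an unadjusted p under 0.05), with a median of 0.36.

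Of regulators of mitochondrial mass 3 of 13 were higher and 4 lower, against 20.5% and 16.4% of all genes. Ppargc1a, the coactivator that drives brown fat mitochondria, rose from 0.275 ± 0.187 (SD, n = 5) to 3.19 ± 1.43 FPKM (n = 4), a log2 fold change of 3.64 (SE 0.73, edgeR adjusted p = 0.0020). Ppargc1b rose by 2.72 (SE 0.42, adjusted p = 0.00037), and Esrra, a receptor these coactivators act through, by 0.94 (SE 0.26, adjusted p = 0.015). Esrrg fell by 1.96 (SE 0.42, adjusted p = 0.0030). The brown fat markers also include Cidea, of lipid droplets, which rose from 27.3 ± 27.2 to 330 ± 178 FPKM (3.71, adjusted p = 0.033), and Kcnk3, a potassium channel also of the adrenal cortex, which fell from 433 ± 67.6 to 72.8 ± 27.4 FPKM (-2.46, adjusted p = 0.014).

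Cox7a1 and Cox8b are also genes of striated muscle. Of 10 skeletal muscle markers fixed for this check, Myl1 alone was among the genes listed in all groups. It rose from 0.748 to 1.72 FPKM before TAM to 3.53 to 10.6 FPKM at 8 weeks (log2 fold change 2.37, SE 0.42, edgeR adjusted p = 0.00086). The part of muscle in the values of Cox7a1 and Cox8b was not tested. No value can be given here for the other 9.

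**Figure D5:**
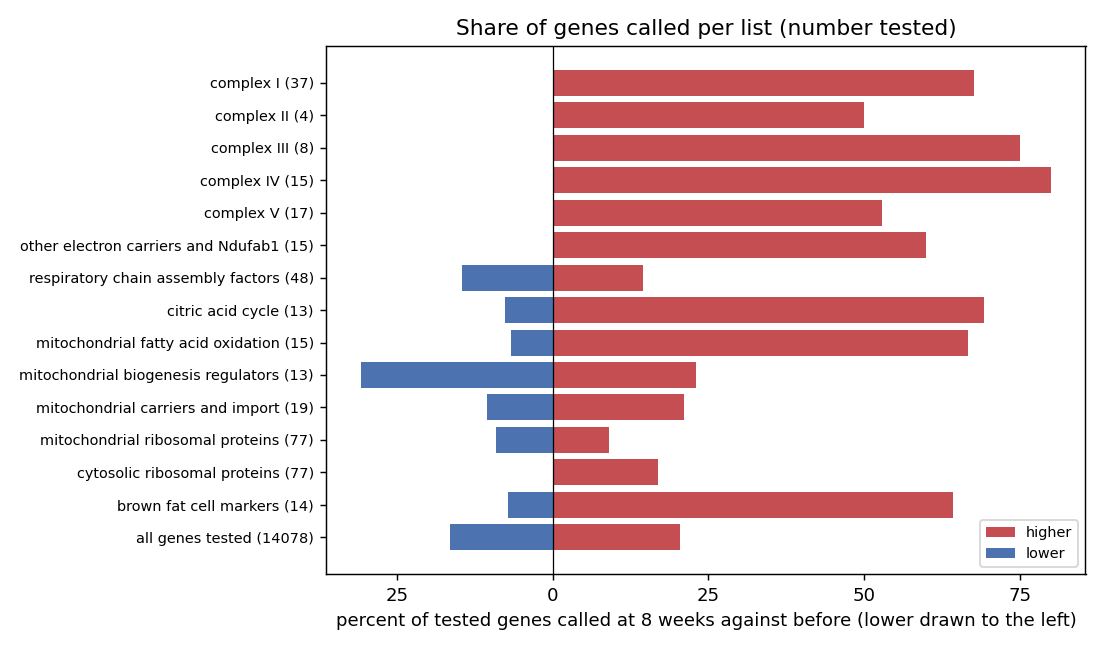
Percent of tested genes of each complex and of each other list called higher (to the right) or lower (to the left) at 8 weeks against before TAM, with edgeR adjusted p under 0.05. The subunit complexes reach to the right only, the assembly factors and mitochondrial ribosomal proteins reach equally both ways, and over all genes the shares are 20.5% and 16.4%.

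Across the upstream windows of the 68 subunit genes matched in the RefSeq table, 13 (19.1%) held the NRF1 motif, against 5.16% of all 32851 windows. For each subunit gene the window nearest its deposited start was taken. The 32851 were neither chosen that way nor limited to the genes listed here, so the shares come from unlike sets. The ETS motif was in 11 (16.2%, against 6.91% of all), the SP1 motif in 23 (33.8%, against 32.7%), the estrogen-related receptor motif in 1 (1.47%, against 0.387%) and the YY1 motif in 0 (against 0.606%). The single estrogen-related receptor match was in Atp5g3. Of the matched genes called higher at 8 weeks 10 of 46 held the NRF1 motif, and of those not called 3 of 22.

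The authors' deposited table compares 8 weeks with before TAM by transcript and lists 100 transcripts of the subunit genes. By q under 0.05 in the authors' deposited table, transcripts of 39 genes were higher, 40 in all, 13 of these at least 2-fold, and 1 was lower. In the authors' deposited table Cox8b had a log2 ratio of 3.71 (q = 0.0054), Cox7a1 of 3.14 (q = 0.0082) and Atp5k of 1.67 (q = 0.041).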

How the data were processed

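The libraries of 13 adrenal gland samples were prepared with a kit for stranded mRNA (per the labels' protocols). The submitters' processing notes name bcl2fastq 2.17, TopHat2 2.0.14 and the build mm10 (GRCm38). Per the file headers, the deposited tables hold an expected count, which need not be whole, and FPKM by RefSeq transcript. Another deposited table gives log2 ratios, p-values and q-values of the authors for 8 weeks against before. Only transcripts listed in all 3 tables were used (18738, for 14078 genes).

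Summed per gene and rounded, the expected counts went into 1 quasi-likelihood fit of all libraries by group in edgeR 4.0.16 (R 4.3.3), with TMM scaling, filterByExpr (which removed 0 genes), Benjamini-Hochberg adjustment over all 14078 genes and a threshold of 0.05. All adjusted p-values are from that test unless another is named. The SE of a log2 fold change is its size over the square root of F. FPKM was summed per gene without the TMM factors, and values beside ± are SD over libraries. Statements that libraries overlap or do not overlap rest on FPKM. The fitting code was tested on simulated data.

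The subunit genes, gene lists and tests were chosen with earlier results of these data known. Genes named are, per complex and comparison, up to 4 called genes with the lowest p, the tissue-restricted forms with their partners, all of complex II, Ucp1, the 5 genes most like it, and up to 3 called genes per other list; others are said to be chosen after their values were seen. Core subunits of complex I, the head of complex V, Ndufa7, Uqcrc1, Uqcrq, Uqcr10, Uqcr11 and several genes of other lists are of that second kind. Libraries carry replicate numbers in every group, but deviations of same-numbered libraries did not correlate throughout, so no block was used. Alternatives were another scaling, none, totals implied by FPKM, no filter, DESeq2 1.42.0, a replicate block, 2 groups only, all transcripts of 2 tables, Ucp1 as a covariate and leaving out each library. Values of 1 complex I gene are not reported here, though it counts among the 81.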

Additional observations from a re-analysis of the deposited data

Results flagged for a closer look

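A total of 132 groups of 4 or 5 libraries were examined for a single value set apart from the rest. The search found 6, no more than the share of about 5% that chance gives, so they are listed as a description. Of these, 3 were 8-week replicate 3. The mean log2 level of all subunit genes relative to before TAM was 0.32 there, with the next library at 0.90. Atp5o was at 177 FPKM in that library against 333 in the next, and Sdhd at 110 against 206. Replicate 3 from before TAM was set apart above its group in Atp5o (198 FPKM, next 163) and in Ndufa4 (381 FPKM, next 326). In 24 h replicate 3 the mean of complex IV was -0.84, with the next library at 0.39.

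Cox6a2, the heart and muscle form of complex IV subunit 6a, lies outside the comparisons because it was listed at 24 h only. It was at 11.0, 14.6, 0.566 and 11.8 FPKM in the 24 h libraries, and the low value is again that of replicate 3.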

How the results depend on the processing

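The count of subunit genes higher at 8 weeks than before TAM (54) ranged from 44 to 65 over another scaling, no scaling, totals implied by FPKM, no filter, DESeq2, 2 groups only and all transcripts of the 2 tables, and none was lower in any of these. Replicate numbers did not pair the libraries: correlations of deviations between same-numbered libraries ran from -0.125 to 0.277 and between different numbers from -0.256 to 0.341. With a replicate block the count was 39 at 8 weeks against before, 42 at 8 weeks against 24 h (complex V 4) and 0 at 24 h. Shares over all genes are not given for these alternatives, so changes in these counts cannot be set against changes over all genes.

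Leaving out each library in turn gave 41 to 64 genes higher at 8 weeks against before (median log2 fold change 0.68 to 0.88), with 20 to 30 of complex I, 2 to 3 of II, 4 to 8 of III, 8 to 13 of IV and 6 to 10 of V. At 24 h against before it gave 0 to 3 higher and 0 to 1 lower (median -0.14 to 0.16), and at 8 weeks against 24 h 33 to 57 higher (median 0.58 to 0.94), with 16 to 31 of complex I, 3 to 4 of II, 3 to 4 of III, 6 to 9 of IV and 5 to 9 of V. Complex I at 8 weeks against 24 h was lowered most by the loss of 8-week replicate 2 or 4. Shares over all genes are given above only for some of the fits without 24 h replicate 3 or 4.

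With Ucp1 as a covariate the count at 8 weeks against before was 17 (median 0.44), with 6 of complex I, 1 of II, 1 of III, 6 of IV and 3 of V, and the log2 fold changes of Cox6a1 (-0.18) and Sdha (-0.08) changed sign. At 24 h in that fit 1 gene was lower (Sdha), and Cox7a1 (-0.10) and Cox8b (-0.11) changed sign. At 8 weeks against 24 h it gave 18, with 10 of complex I, 1 of II, 0 of III, 3 of IV and 4 of V, and 6.56% of all genes higher. A fit of the 24 h and 8-week groups alone gave 8, with 3 of complex I, 0 of II, 0 of III, 3 of IV and 2 of V, from fewer samples. With no scaling 1 gene was lower at 24 h (Ndufa7), and with DESeq2 1 (Sdha). The cause of these changes was not tested. Of the 1335 other values, each of a single gene under an alternative, 1211 kept direction and side of the threshold.

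Expected counts hold no measure of how reads of near-identical copies were divided, which limits short genes such as Atp5k, and 4 or 5 libraries per group limit what the test can call.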
